A study of Schizosaccharomyces pombe with 4 samples.

Results

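The genes described here build, cut and remodel the cell wall of the fission yeast Schizosaccharomyces pombe, or encode the septins that ring the division site. They were taken from the array's own descriptions, wherever the text held glucan, glucanase, chitin, septin, cell wall or galactomannan and did not hold protein kinase, glycogen or meio. That gave 38 of 4997 array genes. No description with galactomannan was found. Signals were compared between wild type (strain FY12806) and a strain that lacks red2 (SP744), with 2 arrays per group. Both strains grew logarithmically at 30 °C in rich medium with 0.5% yeast extract, 3% glucose and 75 mg/L adenine, and the labels name no other allele and no mating type. The red genes are named for RNA elimination, the removal of meiotic messages from vegetative cells.

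The wall of this yeast is a layered mesh of β-glucan, α-glucan and galactomannan. Each glucan is made by a family of large membrane synthases, and the wall is then opened and relinked by glucanases and glucanosyltransferases. Some families hold a paralogue used in growth and division and another used when the spore wall is laid down. Septins are GTP-binding proteins that polymerise. One group forms a ring at the division septum, and another guides the membrane that encloses each spore.

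Of the 38 members, 37 were tied to 36 gene symbols by their description and their place among named neighbours, and the septin gene spn3 has 2 overlapping array features. The remaining feature is described as exoglucanase I (chromosome I, 95822 to 96502), while the reference holds a gene of another family at that place, so it was left without a symbol. Coordinates are those of the array file, and no source used here names their genome build. All members were tested, since no filter on low values was applied.

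Over the 38 members, Pearson's r was 0.9982 within the wild-type pair, 0.9976 within the deletion pair and 0.9731 to 0.9860 across pairs. The labels do not state whether replicate arrays had cultures of their own. The p-values therefore cover only the variation seen among 4 arrays, possibly technical, and this small number limits precision. The description of deletion replicate 2 names red3, and its title and strain label name red2. The tables used here do not link red2 to one of the array genes. The array gene with the largest fall of all 4997 (chromosome I, 2603271 to 2604926) fell from log2 signals of 14.93 and 15.05 to 5.39 and 4.75. The array names carry a code whose leading number is shared within each genotype and differs between them. The labels do not say what that number marks. If it marks a slide or a batch, its effect and that of genotype cannot be told apart. In culture RNA, a change in the share of cells in some state and a change of message per cell cannot be told apart.

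Across the members, 18 were higher in the deletion, 5 were lower and 15 did not pass the test (limma, Benjamini-Hochberg adjusted p under 0.05 over all array genes). As shares, 47.4% of the members were higher and 13.2% lower. Among all array genes, 34.0% were called higher and 29.8% lower, or 63.8% in either direction. The median log2 fold change of the members was 0.09, against 0.01 for all array genes, and 0.06 without the exoglucanase I feature, whose signal was near the bottom of the scale. Only mok11 and chs1 were called with at least a 2-fold difference, and both were higher. That rule called 2.72% of all array genes as higher and 2.54% as lower. The groups did not overlap for 33 members, 22 of them higher and 11 lower, where 43.4% of all array genes were higher without overlap and 41.2% lower.

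**Figure D1:**
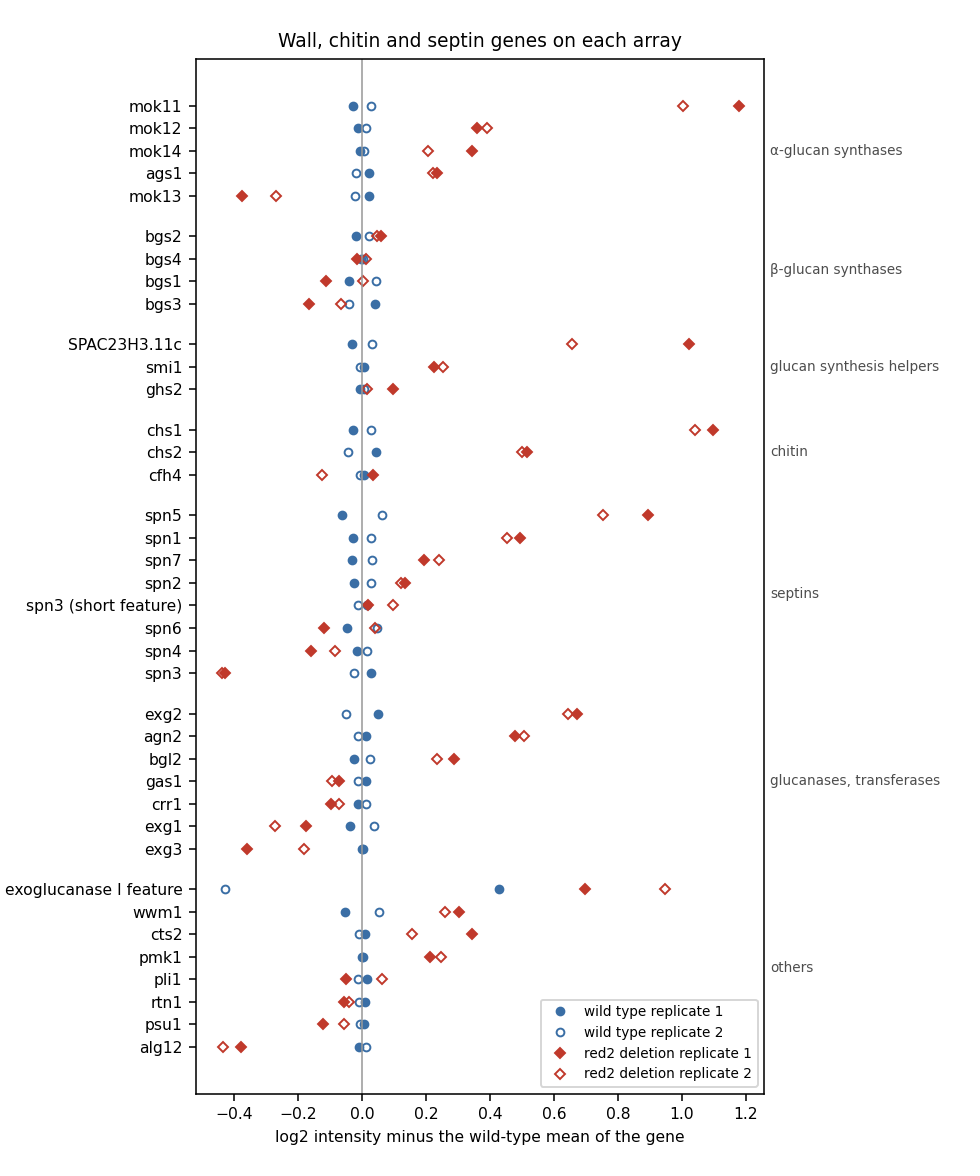
Log2 intensity of each of the 38 members on each array, minus the gene's wild-type mean (x axis), by class. Circles are the wild-type arrays and diamonds the deletion arrays, filled for replicate 1 and open for replicate 2. The deletion arrays of mok11, chs1, SPAC23H3.11c, spn5 and exg2 lie well to the right of their wild-type arrays, and those of spn3, mok13 and alg12 to the left.

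Fold change followed gene length on these arrays, which touches the wall genes because the synthases are among the longest genes of the yeast. Over all array genes the Spearman correlation of log2 fold change with the span from start to end was 0.445 across genes, which are not independent replicates. Over the 38 members it was 0.087. The members had a median span of 1575.5 bp, against 1194 bp for all array genes, and the 9 α- and β-glucan synthases ran from 3613 to 7117 bp. With the trend removed from each array, 14 members were higher, 15 lower and 9 not called. All array genes then gave 28.6% higher and 35.2% lower, and the median of the members turned from 0.09 to -0.07. The part of the length trend in each gene's change was not tested. For members whose call turns, ends or shifts by over 1.5 times with it, that value is given beside the result.

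**Figure D2:**
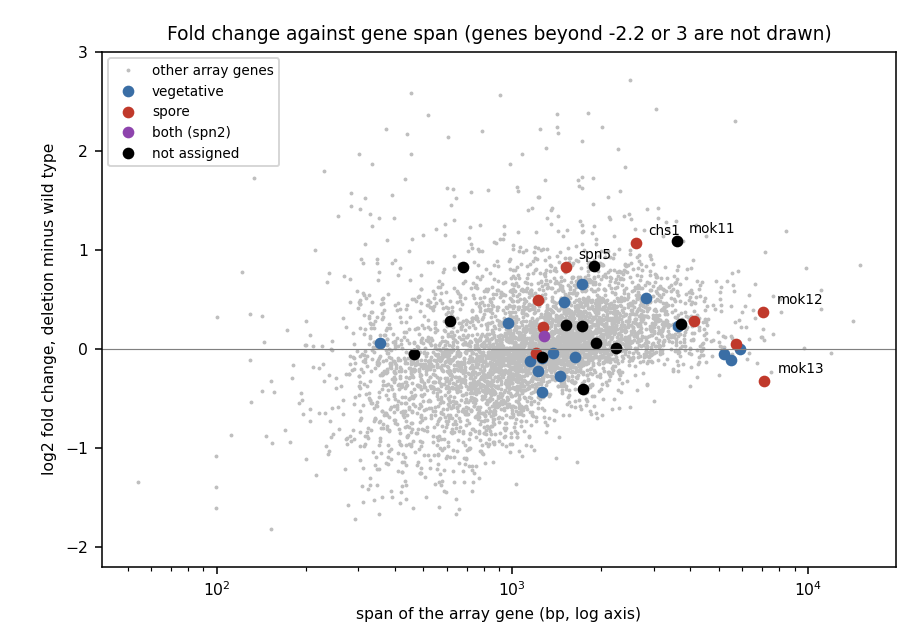
Log2 fold change of the deletion against wild type (y axis) over the span of the array gene in bp (log axis). Grey points are other array genes, and large points are the 38 members coloured by the stage in which they are known to act. The grey cloud rises from short to long genes, the long β-glucan synthases lie near 0, and mok11 and chs1 lie at 1.09 and 1.07.

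All 5 α-glucan synthases passed the test, 4 of them higher and 1 lower, where 63.8% of all array genes passed. The ags1 gene encodes the essential α-glucan synthase of growing cells. Its paralogues mok12, mok13 and mok14 serve the spore wall. The fifth member, mok11, is a further paralogue, to which no stage was assigned here.

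The level of mok11 (chromosome I, 4336700 to 4340312) rose the most of any member on the values as deposited, while chs1 rose as much or more with quantile normalization (1.10 against 1.06), with the first block alone (1.12 against 1.07) and without the length trend (0.772 against 0.763). Its log2 signal was 13.70 and 13.76 in the wild-type arrays and 14.91 and 14.73 in the deletion arrays. Both deletion arrays lay far above both wild-type arrays. The log2 fold change was 1.09 ± 0.07 (limma SE, n = 2 arrays in each group), or 2.13-fold, with a limma adjusted p of 0.000115. It ranked 117 of the 4997 array genes from the highest change, and the 2 blocks of values on each array gave 1.07 and 1.11.

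The spore paralogues of ags1 did not move together. The level of mok12 (chromosome II, 1436482 to 1443540) was 14.43 and 14.45 in wild type against 14.80 and 14.83 in the deletion, a rise of 0.37 ± 0.05 on the log2 scale. The level of mok14 (chromosome III, 839962 to 844071) was 14.90 and 14.91 in wild type against 15.25 and 15.12 in the deletion, a rise of 0.28 ± 0.06. The level of mok13 (chromosome II, 3556649 to 3563765) was 14.84 and 14.79 in wild type against 14.44 and 14.54 in the deletion, a fall of 0.32 ± 0.06. In each of these genes the groups did not overlap, and mok13 went the other way from mok12 and mok14. The limma adjusted p was 0.00102 for mok12, 0.00942 for mok14 and 0.00381 for mok13.

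The vegetative gene ags1 (chromosome III, 1378071 to 1381701) rose slightly. It read 15.502 and 15.461 in wild type against 15.72 and 15.70 in the deletion, a log2 fold change of 0.23 ± 0.05 (limma adjusted p = 0.00756). The call of ags1 did not hold without wild_type replicate 2 (limma adjusted p = 0.0732). After removal of the length trend, ags1 stood at -0.10, mok14 at -0.06 and mok12 at 0.04, none of them called, while mok13 stood at -0.66 (limma adjusted p = 0.000245). The call of mok14 also ended with the first block alone (limma adjusted p = 0.0785). The rise of mok11 kept its call without the length trend, at 0.76.

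None of the 4 β-glucan synthases passed the test, where 63.8% of all array genes passed. The gene bgs1 encodes the synthase of the linear glucan of the primary septum, bgs3 and bgs4 encode synthases of growing cells, of which bgs4 makes much of the main wall glucan, and bgs2 is needed for the spore wall. The largest difference among them was that of bgs3.

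The level of bgs4 (chromosome III, 2253182 to 2259049) was 15.88 and 15.88 in wild type against 15.87 and 15.89 in the deletion. The level of bgs1 (chromosome II, 2310132 to 2315321) was 15.63 and 15.71 in wild type against 15.56 and 15.67 in the deletion, and the groups overlapped for both genes. The level of bgs3 (chromosome I, 4845199 to 4850679) was 15.84 and 15.76 in wild type against 15.63 and 15.73 in the deletion. Both of its deletion arrays lay below its wild-type arrays, and the replicates of each group differed by more than the gap between the nearest arrays of the groups.

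The spore gene bgs2 (chromosome I, 3045769 to 3051453) was 14.38 and 14.42 in wild type against 14.46 and 14.45 in the deletion. On the values as deposited, its log2 fold change of 0.05 had a 95% interval from -0.07 to 0.17. That interval leaves out a rise as large as that of mok12 or chs1 on the same values. It is an interval for the average of the blocks, which differed in sign, at 0.19 for the first and -0.08 for the second. The intervals of the others ran from -0.21 to 0.10 for bgs1, from -0.27 to 0.03 for bgs3 and from -0.12 to 0.12 for bgs4.

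The β-glucan synthases read otherwise once the length trend was taken out. All 4 were then called lower (limma adjusted p from 0.00139 to 0.00278), with bgs3 at -0.45, bgs1 at -0.39, bgs4 at -0.34 and bgs2 at -0.28. The call of bgs3 also appeared with arrays centred on their median (-0.17, limma adjusted p = 0.0467) and with an intensity trend in the variance prior (0.0393). The level of gas1, a glucanosyltransferase gene that lies next to bgs3 on chromosome I, stood at -0.08 beside the -0.12 of bgs3, and neither was called.

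**Figure D3:**
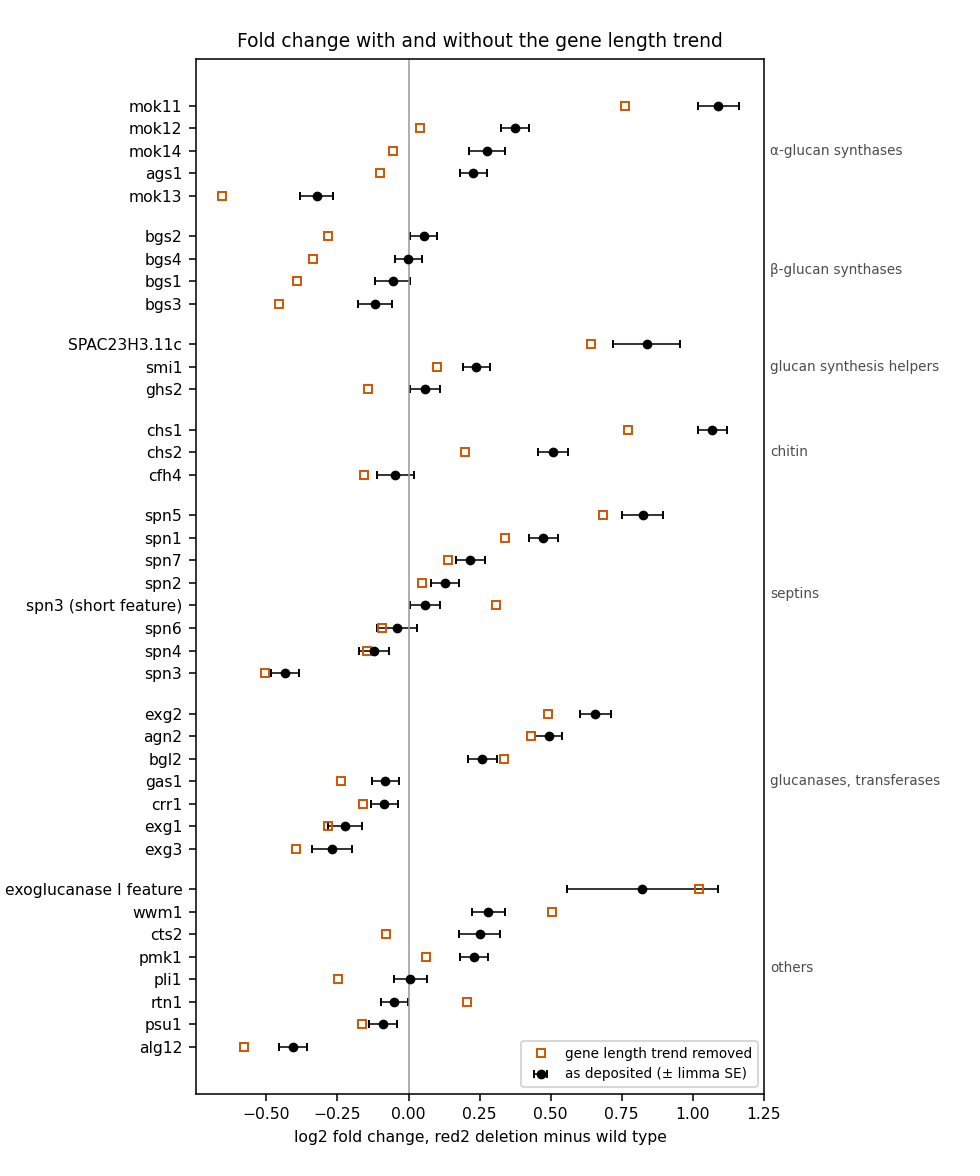
Log2 fold change of each member, deletion minus wild type (x axis), by class. Black points with bars are the values as deposited with limma's standard error, and open squares the values with the gene length trend removed. The squares of the long synthases lie to the left of their points, and mok11, chs1, spn5 and SPAC23H3.11c stay at 0.64 or above on both scales.

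Of the 3 members described as acting beside the glucan synthases, 2 rose, where 34.0% of all array genes were called higher. The gene SPAC23H3.11c (chromosome I, 2505131 to 2507020) encodes a protein described as associated with β-glucan synthesis. It read 12.48 and 12.54 in wild type against 13.53 and 13.17 in the deletion, and rose by 0.84 ± 0.12 on the log2 scale, or 1.79-fold (limma adjusted p = 0.00148). The gap between its deletion arrays, 0.36, was the widest of any member on those arrays, and both arrays still lay above wild type. The gene ghs2 (chromosome I, 3600000 to 3601910) carries the same description and did not pass, at 0.06 ± 0.05, so these similarly described genes differed in their own tests, and the difference between them was not tested. Without the length trend ghs2 was called lower, at -0.14 (limma adjusted p = 0.0466). The gene smi1 (chromosome II, 3021391 to 3022905), described as a putative glucan synthase, rose by 0.24 ± 0.05, and was not called with the length trend removed (0.10, limma adjusted p = 0.114).

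Chitin is not a main polymer of the vegetative wall of fission yeast, and its synthases are best known from the spore wall and the septum. The gene chs1 is needed to form the spore wall, chs2 encodes a chitin synthase homologue found at the septum, and cfh4 encodes a regulatory factor of the chitin synthase family. Both synthase genes rose, and cfh4 did not pass.

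The level of chs1 (chromosome I, 206314 to 208939) was 12.32 and 12.38 (log2) in wild type against 13.45 and 13.39 in the deletion. The replicates lay within 0.06 of each other in both groups, and the groups were far apart. The rise was 1.07 ± 0.05, a 2.10-fold difference (limma adjusted p = 5.95e-05), ranked 120 from the highest of all array genes. Without the length trend it was 0.77 and still called.

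The level of chs2 (chromosome II, 1015056 to 1017883) was 12.71 and 12.62 in wild type against 13.18 and 13.17 in the deletion. That was a rise of 0.51 ± 0.05, or 1.42-fold (limma adjusted p = 0.000482). It was 0.20 with the length trend removed, still called (limma adjusted p = 0.0187). The level of cfh4 (chromosome II, 2641468 to 2642838) was 15.11 and 15.10 in wild type against 15.14 and 14.98 in the deletion, so the groups overlapped.

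The septins split by gene. Of 8 septin features at 7 genes, 3 were higher, 1 was lower and 4 were not called. The shares over all array genes were 34.0% higher and 29.8% lower. The genes spn1, spn3 and spn4 encode septins of the division ring, spn5, spn6 and spn7 encode septins of sporulation, and spn2 acts in both.

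Among the sporulation septins, spn5 rose the most. The level of spn5 (chromosome I, 3066638 to 3068159) was 13.03 and 13.16 in wild type against 13.99 and 13.85 in the deletion, a rise of 0.82 ± 0.07, or 1.77-fold (limma adjusted p = 0.000266). The level of spn7 (chromosome II, 3188302 to 3189570) was 12.24 and 12.30 in wild type against 12.46 and 12.51 in the deletion, a rise of 0.22 ± 0.05. Its call was lost without wild_type replicate 1 (limma adjusted p = 0.109), and its fold change was 0.14 with the length trend removed. The level of spn6 (chromosome III, 1508840 to 1510044) was 13.53 and 13.62 in wild type against 13.46 and 13.61 in the deletion. The groups overlapped for spn6, and its 95% interval, from -0.22 to 0.14, lay below the fold change of spn5.

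The division septins went in both directions. The level of spn1 (chromosome I, 4814287 to 4815778) was 14.06 and 14.11 in wild type against 14.58 and 14.54 in the deletion, a rise of 0.47 ± 0.05 (limma adjusted p = 0.000521). The longer feature of spn3 (chromosome II, 4258393 to 4259647) was 14.81 and 14.76 in wild type against 14.36 and 14.35 in the deletion, a fall of 0.43 ± 0.05, or 1.35-fold (limma adjusted p = 0.000645). This was the largest fall of any member on the values as deposited, and without the length trend mok13 (-0.66) and alg12 (-0.58) fell further. The level of spn4 (chromosome I, 1983949 to 1985091) was 14.16 and 14.19 in wild type against 14.02 and 14.09 in the deletion, below wild type on both arrays and not called (-0.12, limma adjusted p = 0.0885). It was called with arrays centred on their median (limma adjusted p = 0.026), after removal of the length trend (0.0407) and without red2_deletion replicate 2 (0.0389).

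The features of spn3 disagreed. The shorter one, of 356 bp (chromosome II, 4258120 to 4258475), overlaps the start of the longer one in coordinates and stood at 0.06 ± 0.05, not called. Once the length trend was removed it was called higher, at 0.31, while the longer one stood at -0.51. The fall of spn3 therefore rests on the longer feature alone. The shared septin spn2 (chromosome I, 1000474 to 1001749) read 14.96 and 15.02 in wild type against 15.12 and 15.11 in the deletion, a difference of 0.13 ± 0.05 that did not pass (limma adjusted p = 0.0633) and of 0.05 without the length trend. It passed without the dimmest 25% of array genes (0.0478) and with an intensity trend in the variance prior (0.0407).

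The 7 glucanases and glucanosyltransferases held 3 that rose, 2 that fell and 2 that were not called. Shares over all array genes were 34.0% higher and 29.8% lower. The gene agn2 encodes an α-glucanase that opens the ascus wall to free the spores. Its level (chromosome II, 852557 to 853780) was 13.08 and 13.06 in wild type against 13.55 and 13.58 in the deletion, a rise of 0.49 ± 0.05, or 1.41-fold (limma adjusted p = 0.000377). The 2 blocks gave 0.64 and 0.34.

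The exo-β-glucanase genes did not share a direction. The gene exg2 encodes the membrane-bound enzyme, exg1 a secreted one and exg3 one that stays in the cell. The level of exg2 (chromosome I, 4553056 to 4554768) was 13.43 and 13.33 in wild type against 14.06 and 14.03 in the deletion, a rise of 0.66 ± 0.06, or 1.58-fold (limma adjusted p = 0.000234). The level of exg1 (chromosome II, 3474216 to 3475439) was 15.75 and 15.82 in wild type against 15.61 and 15.52 in the deletion, a fall of 0.22 ± 0.06 (limma adjusted p = 0.0168). The level of exg3 (chromosome II, 2933906 to 2935350) was 14.97 on both wild-type arrays and 14.61 and 14.79 in the deletion, a fall of 0.27 ± 0.07 (limma adjusted p = 0.0167). The groups did not overlap for any of these genes. The call of exg1 ended without wild_type replicate 2 (limma adjusted p = 0.114) and, like that of exg3, with the first block alone (0.061 for exg1, 0.0993 for exg3).

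Of the genes for enzymes that relink glucan chains, bgl2 rose and gas1 was not called. The gene bgl2 (chromosome I, 4095824 to 4096789) encodes a β-glucanosyltransferase and rose by 0.26 ± 0.05, from 15.10 and 15.14 to 15.41 and 15.35 (limma adjusted p = 0.0056). The gene gas1 (chromosome I, 4840026 to 4841654) encodes a membrane-anchored β-glucanosyltransferase, and was at 15.89 and 15.87 in wild type against 15.81 and 15.79 in the deletion. Its difference of -0.08 ± 0.05 did not pass. The gene crr1 (chromosome II, 1616264 to 1617523), described as a glucanase precursor, was at -0.08 ± 0.05 and did not pass. Both gas1 and crr1 were called lower with arrays centred on their median (limma adjusted p = 0.0447 and 0.0416) and with the length trend removed (-0.24 and -0.16).

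Of the 8 other members, 4 were called higher, 1 lower and 3 not, against 34.0% higher and 29.8% lower over all array genes. The one that fell was alg12 (chromosome II, 1003283 to 1005016), which encodes a mannosyltransferase of N-glycan assembly and is described on the array as acting in wall biogenesis. It read 15.22 and 15.24 in wild type against 14.85 and 14.80 in the deletion, a fall of 0.41 ± 0.05, or 1.33-fold (limma adjusted p = 0.000847). The gene wwm1 (chromosome II, 1457179 to 1457793), likened on the array to a budding yeast wall protein, rose by 0.28 ± 0.06, and by 0.50 with the length trend removed. Its call ended without wild_type replicate 1 (limma adjusted p = 0.0524) and with the first block alone (0.0569).

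The gene cts2 (chromosome I, 3280972 to 3284682), described as a putative glucoamylase with a chitinase family signature, was called higher at 0.25 ± 0.07 (limma adjusted p = 0.0252). That call did not hold with arrays centred on their median (limma adjusted p = 0.0587), with the first block alone (0.109) or without wild_type replicate 2 (0.0652), and cts2 stood at -0.08 with the length trend removed. The feature described as exoglucanase I was called higher too, but its values of 6.30 and 5.44 in wild type against 6.56 and 6.82 in the deletion lie near the bottom of the scale, and no size is read from them. Its second-block values ran from 4.56 to 6.90, and its call was lost under 4 of the 13 alternatives that could be fitted to it.

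The essential SUN family gene psu1 (chromosome I, 1814098 to 1815351), needed for wall synthesis, did not pass, at -0.09 ± 0.05. It read 15.89 and 15.87 in wild type against 15.76 and 15.82 in the deletion. It was called lower with arrays centred on their median (limma adjusted p = 0.045), with an intensity trend in the variance prior (0.0487) and with the length trend removed (0.0274). The remaining members of this class, rtn1 and pli1, stood at -0.05 and 0.01, uncalled. Without the length trend rtn1 was called at 0.21 and pli1 at -0.25.

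Spore paralogues were set against vegetative ones within each family. By stage, the 9 spore genes held 6 that rose, 1 that fell and 2 not called, with a median log2 fold change of 0.28. Of the 15 vegetative genes, leaving out the short spn3 feature, 5 rose, 3 fell and 7 were not called, with a median of -0.06. Among all array genes, 34.0% were called higher and 29.8% lower, against 33.3% and 20% of these vegetative genes and 66.7% and 11.1% of the spore genes. The difference between the counts of spore and vegetative genes was not tested. After removal of the length trend the spore genes held 4 higher and 2 lower, and the vegetative genes 4 higher and 9 lower. All array genes then gave 28.6% higher and 35.2% lower. The median fold changes of the spore and vegetative genes were then 0.04 and -0.16. The stages also differed in signal, with a median log2 level of 13.56 for the spore genes and 15.25 for these vegetative genes. The part of signal in the difference between the stages was not tested.

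For each family the mean log2 level of the vegetative members was taken from that of the spore members on every array, and the genotypes were compared. For the chitin synthases the spore minus vegetative value was -0.39 and -0.25 in wild type against 0.26 and 0.22 in the deletion, a shift of 0.56 (pooled SD 0.075 between replicates). For the septins it was -1.41 and -1.33 in wild type against -1.015 and -1.002 in the deletion, a shift of 0.36 (pooled SD 0.042). The value was higher on each deletion array than on each wild-type array in both families. Among the septins it is a mean over genes that differed, since spn6 (-0.04) and spn7 (0.22) stood below the vegetative spn1 (0.47), and it includes the longer spn3 feature.

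For the β-glucan synthases the value was -1.41 and -1.37 in wild type against -1.23 and -1.32 in the deletion, a shift of 0.11 (pooled SD 0.050). That shift was 0.026 with quantile normalization, 0.0079 with the second block alone, 0.21 with the first block alone and 0.065 without red2_deletion replicate 1. For the α-glucan synthases it was -0.78 and -0.74 in wild type against -0.89 and -0.87 in the deletion, a shift of -0.12 (pooled SD 0.020) and of -0.19 with quantile normalization. The shift ran the other way there, with mok12, mok13 and mok14 as the spore members and ags1 as the vegetative one. It leaves out mok11 (1.09), to which no stage was assigned, and its direction would turn with mok11 among the spore members. The size of the shift with mok11 included was not computed. On the values as deposited, the groups did not overlap in any of the 4 families. The exact two-sided permutation test over arrays gave p = 0.333 in each, before and after adjustment over the 4 families, and that is the smallest p it can give with 2 arrays against 2. Without the length trend the shifts were 0.57, 0.35, 0.11 and -0.12 in the same order.

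**Figure D4:**
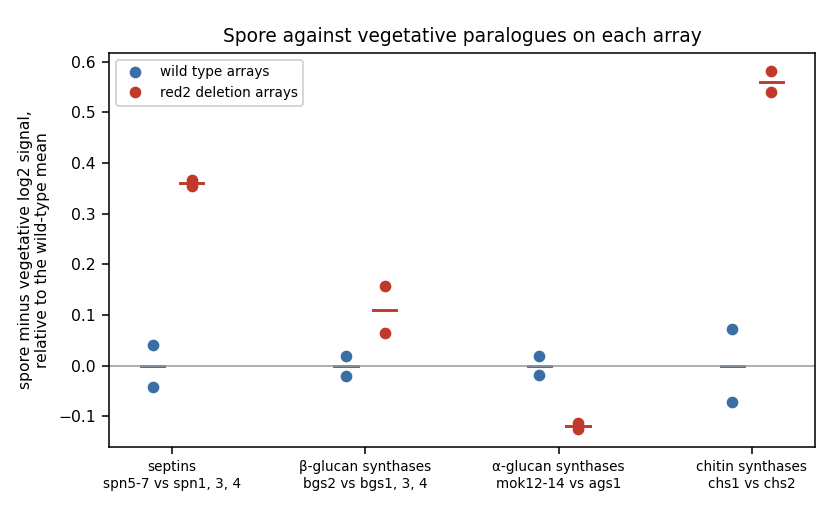
Mean log2 signal of the spore paralogues minus that of the vegetative paralogues on each array, relative to the wild-type mean (y axis), in 4 families. Points are single arrays, and short lines are group means. Deletion arrays lie above wild type for the chitin synthases (shift 0.56), the septins (0.36) and the β-glucan synthases (0.11). They lie below it for the α-glucan synthases (-0.12), where mok11 is left out.

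The members that changed most had lower signals. Of the 9 members with a mean signal under 14 on the log2 scale, the exoglucanase I feature among them, 8 were higher and 0 were lower, and the median log2 fold change was 0.66. Among all 1849 array genes under that signal, 36.5% were called higher and 37.5% lower, with a median of -0.01. In the brightest range, where ghs2 with a mean of 15.52 was the dimmest member, 2 of 10 members were higher and 1 was lower. Of all 644 array genes in that range, 8.70% were higher and 15.1% lower. That bright group holds bgs1, bgs3, bgs4, gas1, psu1, exg1, ghs2, rtn1, ags1 and smi1. Those called higher were ags1 (0.23) and smi1 (0.24), and the one called lower was exg1 (-0.22). Deposited intensities end at 65027.6, and the median absolute log2 fold change of array genes was 0.08 in that range, against 0.41 under 14. The part of signal in these results was not tested.

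Chromosomal neighbours were read for mok11, chs1, SPAC23H3.11c and spn5, the members that rose most apart from the exoglucanase I feature. They differed among themselves. The neighbours of SPAC23H3.11c stood at -0.24 (limma adjusted p = 0.00854) and 0.67 (limma adjusted p = 0.000283). The array genes on either side of spn5 stood at 0.28 (limma adjusted p = 0.005) and 0.06, the second not called. Those beside mok11 stood at 0.05, not called, and -0.95 (limma adjusted p = 0.000186). On one side of chs1, a mevalonate kinase gene stood at 0.09, not called, and on the other a very hypothetical reading frame 168 bp away rose by 0.91 (limma adjusted p = 0.0168). The exoglucanase I feature was not ranked, since no size is read from its values. Both of its neighbours, described as a glucose transporter and an efflux transporter, rose, by 1.70 and 1.24.

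Genes of related pathways could be followed only where a word in their description gave a symbol. The MAP kinase gene pmk1 of the wall integrity pathway (chromosome II, 650558 to 652281), itself a member, rose by 0.23 ± 0.05 (limma adjusted p = 0.00694). Its level went from 15.06 and 15.05 to 15.27 and 15.30. The call of pmk1 ended with the length trend removed (0.06), with the first block alone (limma adjusted p = 0.0915) and without wild_type replicate 2 (0.0511).

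In the list for the septum and cell separation, 3 of 23 genes were matched. Of these spg1, the GTPase of the septation network, fell by 0.29 ± 0.06 (limma adjusted p = 0.00608), and mid1 and cfh4 were not called, at 0.12 and -0.05. Without the length trend spg1 stood at -0.16, still called, and mid1 at -0.18, called lower (limma adjusted p = 0.02). The list of vegetative wall synthesis had 16 of 25 genes matched, 6 higher, 3 lower and 7 not called, and 4 higher and 9 lower without the length trend. The list of the spore wall and spore septins, which counts mok11 and spn2, had 12 of 19 matched, 7 higher, 1 lower and 4 not called, and 6 higher and 2 lower without the length trend. Most genes of both lists are members described above. Among all array genes, 34.0% were called higher and 29.8% lower, and 28.6% and 35.2% without the length trend.

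Genes listed as markers of other cell states were also read. Their values do not show whether the share of cells in such a state changed. Over all array genes, 34.0% were called higher and 29.8% lower, and 28.6% and 35.2% without the length trend. Of the 12 listed markers of mating and sporulating cells, 7 were matched, and 5 were higher, 0 lower and 2 not called. Without the length trend 4 were higher, since fus1 (0.38 to 0.05) and ste6 (0.28 to -0.02) lost their calls and isp3 (0.25 to 0.49) gained one. Their summed intensity ran from 45369 to 46068 on the wild-type arrays and from 63955 to 65795 on the deletion arrays. That sum does not show an even shift of the markers. The meiotic kinase gene mek1 rose the most of them, by 2.18, from 11.71 and 11.74 to 13.90 and 13.91, and mei2 rose by 0.77. The brightest marker, spo6, was not called, at 0.03, with 14.75 and 14.80 in wild type against 14.73 and 14.88 in the deletion. Of the 5 markers of stationary or nitrogen-starved cells, 4 were matched and 3 were higher, with summed intensities of 96345 to 97731 in wild type against 122748 to 125382 in the deletion. The fourth, isp5, was called lower without the length trend (-0.17, limma adjusted p = 0.0298). Both matched markers of G1/S, cdt1 and cig2, were lower, at -0.17 each, and at -0.27 and -0.23 without the length trend. The median absolute log2 fold change of all array genes was 0.26 on the values as deposited. The part of these shifts in the changes of the wall and septin genes was not tested.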

How the data were processed

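Messages in total RNA were read on 1-colour NimbleGen arrays with Cy3, per the labels' protocols. Each deposited intensity is linear and had gone through RMA, which the submitters' processing notes name without its version or steps. The deposited ratio of deletion to wild type was used as an alternative. The 2 blocks of each gene were averaged on the log2 scale.

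Symbols come from the RefSeq table (assembly ASM294v3). A description word gave the symbol of 368 array genes on the same chromosome whose offset lay within 10 kb of that of their 4 nearest neighbours, and 40 others were dropped. Of the members, 7 carry such a word, and 30 were named where the reference gene at their shifted place belongs to the described family. Stages were assigned from general knowledge.

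The test was limma (version 3.58.1, R 4.3.3) with genotype alone in the model and the 4 arrays fitted together. Two-sided p-values were adjusted by Benjamini-Hochberg over 4997 genes, called under 0.05, with no filter or pseudocount. It was tested on simulated data. Correlation of same-numbered arrays' deviations was -0.04, and the labels do not say that numbers mark shared cultures, so they were not taken as pairs. Named were all members of families with spore and vegetative paralogues, all glucanases, and the 4 most changed of each other class. The genes psu1, pli1, rtn1 and pmk1 were added after their values were seen. Members and lists were chosen with earlier results of these data known. The list of the wall integrity pathway is not reported here as a whole.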

Additional observations from a re-analysis of the deposited data

How the results depend on the processing

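Of 23 called members, 12 kept call and direction under every one of the 14 alternative fits that included them, namely mok11, mok13, chs1, chs2, SPAC23H3.11c, spn1, spn3, spn5, agn2, bgl2, exg2 and alg12. Of 15 uncalled members, 2, spn6 and cfh4, stayed uncalled throughout. The count of members called lower, 5, went to 10 with arrays centred on their median, to 15 with the length trend removed and to 3 with the first block alone. Centring lowered the log2 fold change of every array gene by 0.056. The share of all array genes called lower went from 29.8% to 35.2% with the length trend removed, and is not given for the other fits. With at least a 2-fold difference asked, 2 members were higher and 0 lower, against 2.72% and 2.54% of all array genes. Leaving out each array in turn gave 15 to 18 higher and 4 to 6 lower. A lone array in a group was given the spread of the other group. The replicate number as a block gave 18 and 5 and changed no call of a member.

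The median log2 fold change of the members, 0.09, was 0.067 with quantile normalization, 0.038 with arrays centred, 0.0066 without the dimmest 25% of array genes (which leaves out 7 members), 0.15 with the first block alone and -0.067 with the length trend removed. It ran from 0.087 to 0.12 with each array left out. The spore minus vegetative shift of the septins was 0.42 with quantile normalization. That of the α-glucan synthases was -0.19 there. That of the β-glucan synthases was 0.026 there, 0.21 with the first block and 0.0079 with the second.

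With the length trend removed, mok14 (-0.056), ags1 (-0.10) and cts2 (-0.078) turned and lost their calls, while bgs2 (-0.28), ghs2 (-0.14), pli1 (-0.25) and rtn1 (0.21) turned and gained one. The cause was not tested.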
